A study of Mus musculus with 16 samples.

Results

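CD9+ macrophages sorted from the graft-bone interface on day 1 after anterior cruciate ligament reconstruction (ACLR) were compared with F4/80- myeloid cells sorted from the same kind of tissue on the same day. The comparison takes every library that the labels give to these populations on day 1, which is 4 of the 16 bulk RNA-seq libraries of the series, 2 for each population. The mice were male, wild-type C57BL/6J and 12 weeks old at surgery, in which a flexor tendon graft was passed through bone tunnels of the knee. The tissue around the graft was digested with Collagenase A, Dispase II and DNase I, erythrocytes were lysed, and the cells of 5 to 7 mice were pooled for each library. CD9+ cells were live, Lin-, CD45+, Ly6G-, CD11b+, F4/80+ and CD9+, a gate that also takes in rare cells positive for both CD9 and CX3CR1. F4/80- cells were live, Lin-, CD45+, Ly6G- and CD11b+ but lacked F4/80, with no CD9 criterion, so this population is a mixture set by the absence of an antigen. The labels repeat the pool names WT1 and WT2 across the populations of a day, and the study used too few mice for every library to have its own, so libraries of different populations share mice. That an equal number marks the same pool is not stated, and n = 2 pools per population below. The remaining libraries are CX3CR1+ macrophages and neutrophils on day 1 and all 4 populations on day 14.

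F4/80 is an adhesion receptor that appears on the surface of monocytes as they mature into macrophages. Macrophages clear dead cells and debris after injury, take up lipid and iron from them, and release chemokines, growth factors and matrix proteins. Myeloid cells that carry CD11b without F4/80 or Ly6G can include early monocytes, immature granulocytes, basophils and some dendritic cells. CD9 is a tetraspanin, a small membrane protein that organises receptors and integrins, and it is found on many leukocytes and on platelets.

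The 4 libraries held 14059144 and 10587857 counts (CD9+ libraries 1 and 2) and 17788492 and 18910479 counts (F4/80- libraries 1 and 2), within the range of 9233952 to 19814119 over all 16. The CD9+ pair was the least alike of the 8 pairs. Its log2 CPM (counts scaled to library size, with TMM factors) correlated at r = 0.935 across genes, against 0.976 to 0.988 in the other pairs, and 2182 tested genes lay more than 2-fold apart, against 384 to 1156. Markers of neutrophils moved with this spread: their summed level was 22304 and 6940.3 CPM in the CD9+ libraries and 46781 and 40577 CPM in the F4/80- libraries. The non-coding genes Gm23935 and Gm42418 together took 3.82% and 9.70% of the counts of the CD9+ libraries and 1.22% and 1.51% of those of the F4/80- libraries. For the genes chosen by the naming rule, the day 1 log2 fold change is therefore given also with a library left out where it then differed by more than 1.5-fold or the call was lost. Where the library that remained in a population had no read, the fitted value depends on the model's prior count and is not a bound. Paired values joined by "against" are those of CD9+ libraries 1 and 2 followed by those of F4/80- libraries 1 and 2, and a bare number in brackets after a gene name is its log2 fold change, CD9+ over F4/80-.

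The transcript of F4/80 followed the gates, and those of Ly6G and CX3CR1, which do not separate these 2 gates, differed as well. Adgre1, which encodes F4/80 (mm10, as for all gene positions here, chr17:57358691-57483527, plus strand), was at 122 and 157 CPM in the CD9+ libraries and 13.97 and 8.56 CPM in the F4/80- libraries (log2 fold change 3.63 ± 0.24 (SE), adjusted p = 1.76e-07). The groups were far apart, and both F4/80- libraries still held Adgre1 reads above the floor of 3 counts. Ly6g, the antigen excluded from both gates, was at 1.93 and 0.104 CPM in the CD9+ libraries and 9.77 and 7.07 CPM in the F4/80- libraries, against 119.6 and 78.2 CPM in the sorted neutrophils. It was lower in CD9+ cells (log2 fold change -2.86 ± 0.48 (SE), adjusted p = 0.000463), with a log2 fold change of -6.19 without CD9+ library 1 and -2.12 without CD9+ library 2. Cx3cr1, the receptor for fractalkine, was higher in CD9+ cells at 73.7 and 92.4 CPM against 22.2 and 19.2 CPM (log2 fold change 2.01 ± 0.18 (SE), adjusted p = 1.24e-06).

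Cd9 itself differed little in RNA. It was at 150.1 and 147 CPM in the CD9+ libraries and 110.0 and 109 CPM in the F4/80- libraries (chr6:125460266-125494791, minus strand), and the groups did not overlap. The log2 fold change of 0.44 ± 0.12 (SE, adjusted p = 0.0157) was under the 2-fold limit of a call. Sorted neutrophils held 648 and 647 CPM and sorted CX3CR1+ macrophages 18.8 and 21.3 CPM, so the F4/80- cells lay between these populations for this transcript. Itgam, which encodes CD11b, and Ptprc, which encodes CD45, were not called, with log2 fold changes of 0.59 and 0.27. Ly6c2, a surface antigen of inflammatory monocytes, was at 198 and 218 CPM against 281 and 280.2 CPM (log2 fold change -0.43, adjusted p = 0.126).

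Of 12031 genes tested out of 20200, 1848 (15.4%) were differentially expressed between CD9+ and F4/80- cells, meaning a Benjamini-Hochberg adjusted p under 0.05 in edgeR's quasi-likelihood test and at least a 2-fold change. CD9+ cells were higher for 1080 genes (8.98% of those tested) and lower for 768 (6.38%). The median log2 fold change over all tested genes was -0.013. The values of the 2 populations did not overlap for 7088 genes (58.9%), among them 1844 of the 1848 called. The genes called higher had a median change of 1.84 on the log2 scale, and 478 of them were over 4-fold and 83 over 16-fold. For the genes called lower, the median size was 1.66, with 277 over 4-fold and 69 over 16-fold. The split between higher and lower depended on the scaling: with library size alone, 802 genes were higher and 1245 lower (39.2% higher, against 58.4% with TMM), and the median over all genes moved to -0.27. The number of genes called was 2786 without CD9+ library 1 and between 1467 and 1645 without another library of the 4. With 2 pools against 2, an exact permutation test of a single gene cannot go below p = 0.333 (two-sided). Calls therefore rest on a spread estimated over all 16 libraries, most of them outside this comparison. The 2 CD9+ libraries differed with a standard deviation of 0.916 (log2 scale, across genes), against 0.389 to 0.621 in the other pairs. The p-values measure spread between pools and can understate that of the CD9+ pools compared here. With the 4 libraries alone, 1018 genes were called, in a fit with fewer residual degrees of freedom.

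**Figure D1:**
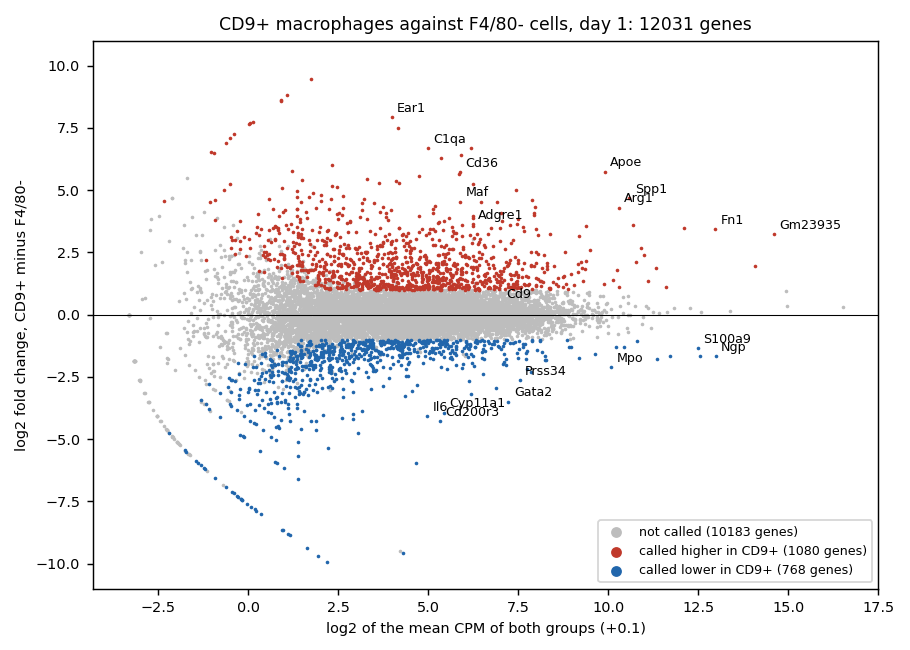
Each point is a tested gene, with the log2 of its mean CPM over both groups (plus 0.1) on the horizontal axis and its log2 fold change, CD9+ minus F4/80-, on the vertical axis. The 1080 genes called higher and the 768 called lower are coloured, and some of the genes described here are labelled.

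Large increases in CD9+ cells were in genes of macrophage complement, lipid handling and, separately, eosinophil granules. Among called genes with a mean of at least 10 CPM in the higher population and no overlap, the 10 with the largest fold were Ear1, Ear6, Epx, C1qa, Pf4, C1qc, Apoe, Cd36, C1qb and Gpnmb. Apoe, the apolipoprotein that carries cholesterol out of loaded macrophages (chr7:19696109-19699188, minus strand), was at 2045 and 1713 CPM in the CD9+ libraries and 36.5 and 34.02 CPM in the F4/80- libraries (log2 fold change 5.74 ± 0.26 (SE), adjusted p = 4.66e-09). The platelet-type chemokine gene Pf4 was at 92.9 and 147 CPM against 0.938 and 1.86 CPM (log2 fold change 6.4 ± 0.55 (SE), adjusted p = 1.07e-06). Both CD9+ libraries were above both F4/80- libraries for each of the 10, which the condition of no overlap fixed in advance.

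By absolute difference in CPM, the 6 genes with the largest rise were Gm23935, Gm42418, Fn1, Thbs1, Ahnak and Spp1. The first 2 are the non-coding genes that together took 3.82% and 9.70% of the CD9+ counts and 1.22% and 1.51% of the F4/80- counts. An alternative fit removed them together with the mitochondrial rRNA genes. Whether their rise lay in the cells or in the libraries was not tested. Fn1 encodes fibronectin, the adhesive protein of the provisional wound matrix (chr1:71585520-71653200, minus strand), and was at 12798 and 16532 CPM in the CD9+ libraries and 1409 and 1321 CPM in the F4/80- libraries (log2 fold change 3.43 ± 0.25 (SE), adjusted p = 3.69e-07). Thbs1, which encodes thrombospondin 1, an activator of latent TGF-β, was at 5386 and 10655 CPM against 697 and 733 CPM (log2 fold change 3.49 ± 0.28 (SE), adjusted p = 6.50e-07). Spp1, which encodes osteopontin, a phosphoprotein of bone and of wound macrophages (chr5:104435118-104441050, plus strand), was at 2609 and 3329 CPM against 111 and 122 CPM (log2 fold change 4.67 ± 0.25 (SE), adjusted p = 3.61e-08). Ahnak, a very large scaffold protein of the cell cortex, rose less (log2 fold change 1.86 ± 0.23 (SE), adjusted p = 3.68e-05). Gm23935 was at 25413 and 65189 CPM against 3225 and 6489 CPM, and its log2 fold change of 3.22 was 2.39 without CD9+ library 2 and 3.81 without F4/80- library 2. Gm42418 had a log2 fold change of 1.94, or 2.59 without CD9+ library 1 and 0.87 (adjusted p = 0.0477) without CD9+ library 2.

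**Figure D2:**
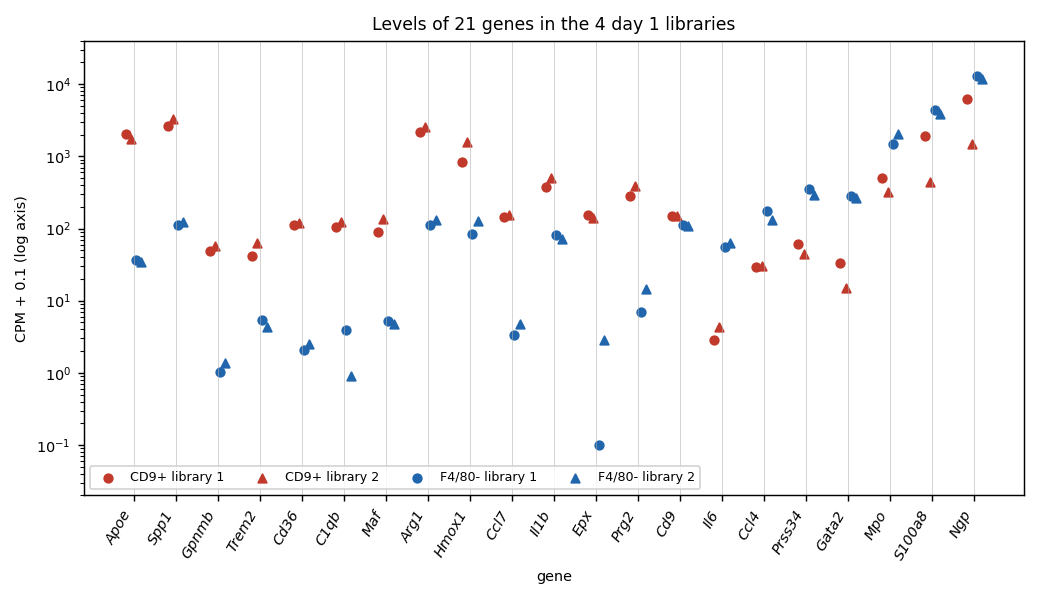
CPM of 21 genes in each of the 4 day 1 libraries compared, on a log axis, with 0.1 added, a point for each library and a colour for each population. Apoe, Spp1 and Arg1 were higher in both CD9+ libraries, Il6 and Gata2 were higher in both F4/80- libraries, and Ngp and S100a8 show the distance between the 2 CD9+ libraries.

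Mature macrophage markers were higher in CD9+ cells almost throughout. In bulk samples like these, fewer cells of a type and less RNA per cell cannot be told apart. Of 21 markers listed, 18 were tested, 15 were called higher, 1 was called lower, and their median log2 fold change was 3.98. Adgre1, whose protein F4/80 the 2 gates were split on, is among these markers and among the 15. The summed level was 3646 and 3826 CPM in the CD9+ libraries and 203 and 168 CPM in the F4/80- libraries, with no overlap, and 3536 and 3241 CPM in CX3CR1+ macrophages. The 3 chains of C1q, the recognition molecule of the classical complement pathway, were all higher. C1qa was at 40.5 and 84.8 CPM in the CD9+ libraries and 1.23 and 0 CPM in the F4/80- libraries. Its log2 fold change was 6.67 ± 0.64 (SE, adjusted p = 3.09e-06), or 6.05 without CD9+ library 2, 12.69 without F4/80- library 1 and 5.65 without F4/80- library 2. C1qb and C1qc rose by 5.63 and 6.31 on the log2 scale, with values of 7.16 without F4/80- library 1 and 4.89 without F4/80- library 2 for C1qb and of 8.39 without F4/80- library 1 and 5.46 without F4/80- library 2 for C1qc.

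Mertk, a receptor for the clearance of dying cells, Siglec1, a sialic acid lectin of tissue macrophages, and Fcgr1, the high-affinity IgG receptor, were also called higher (log2 fold changes 5.37, 4.64 and 3.56). For Mertk the log2 fold change was 6.44 without F4/80- library 1 and 4.74 without F4/80- library 2. Lyve1, a hyaluronan receptor of resident macrophages and lymphatic vessels, was the marker that went the other way, at 0.0714 and 0 CPM against 0.839 and 0.558 CPM. Every CD9+ value of Lyve1 was at or under the floor of 3 counts, so it was at least 2.65-fold lower in CD9+ cells, and the fitted log2 fold change was -6.26 without CD9+ library 1, -3.13 (adjusted p = 0.0616) without CD9+ library 2 and -3.47 (adjusted p = 0.055) without F4/80- library 1. Monocyte markers were more divided, with 9 of 16 called higher, none lower and a median of 1.04. Csf1r, the receptor for macrophage colony-stimulating factor, was at 583 and 927 CPM against 129.7 and 132 CPM (log2 fold change 2.53 ± 0.19 (SE), adjusted p = 5.03e-07). Ace, angiotensin-converting enzyme, was at 28.1 and 32.9 CPM against 1.97 and 5.58 CPM, with a log2 fold change of 3.0, or 3.94 without F4/80- library 2.

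Genes of lipid uptake and storage were higher in CD9+ cells nearly as a whole list. Of 18 lipid-handling genes of the type linked to the receptor Trem2, 16 were called higher and none lower, with a median log2 fold change of 2.76. Leaving out any library of the 4 gave 15 or 16. Cd36, a scavenger receptor for oxidised lipoprotein and fatty acids (chr5:17781690-17888801, minus strand), was at 110.2 and 120.3 CPM in the CD9+ libraries and 1.97 and 2.37 CPM in the F4/80- libraries (log2 fold change 5.72 ± 0.34 (SE), adjusted p = 9.87e-08). Gpnmb, a glycoprotein of lipid-loaded macrophages, was at 48.3 and 57.4 CPM against 0.938 and 1.26 CPM (log2 fold change 5.57 ± 0.41 (SE), adjusted p = 4.08e-07). Both CD9+ libraries were high for these genes, and neither group came near the other. Pparg, the nuclear receptor for fatty acids, was at 7.79 and 5.42 CPM against 0.247 and 0.186 CPM (log2 fold change 4.88 ± 0.53 (SE), adjusted p = 9.75e-06). Trem2 rose by 3.43, Abca1, a cholesterol exporter, by 4.08, and Lpl, lipoprotein lipase, by 2.5 on the log2 scale. The 2 members without a call were Tyrobp, the signalling partner of TREM2, at 0.39, and the tetraspanin Cd63 at -0.46.

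Lysosomal genes were higher for 14 of 30 members and lower for none, with a median of 0.96. Proteases and the osteoclast-type members led the list. Ctsl, a cysteine cathepsin, was at 251 and 328 CPM in the CD9+ libraries and 39.6 and 31.97 CPM in the F4/80- libraries (log2 fold change 3.01 ± 0.23 (SE), adjusted p = 5.03e-07). Ctsd, an aspartic cathepsin, rose by 1.94 (adjusted p = 3.44e-06), and Ctsa, protective protein cathepsin A, by 1.52 (adjusted p = 4.97e-06). Atp6v0d2, a proton pump subunit of osteoclasts and some macrophages, was at 23.9 and 18.9 CPM against 1.93 and 0 CPM, with a log2 fold change of 4.48, or 11.15 without F4/80- library 1 and 3.47 without F4/80- library 2. Ctsk, the collagen-degrading cathepsin of osteoclasts, was at 100.2 and 31.7 CPM against 7.01 and 0.0465 CPM and had a log2 fold change of 4.24, or 3.21 without CD9+ library 1, 4.84 without CD9+ library 2, 10.21 without F4/80- library 1 and 3.24 (adjusted p = 0.0503) without F4/80- library 2. The lysosomal membrane proteins Lamp1 (0.95) and Lamp2 (-0.00035) were not called.

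Several lysosomal promoters hold the E-box CACGTG, the core of the element read by the lysosomal regulators TFEB and MITF. The 250 bases before the RefSeq start (GRCm38.p6) held CACGTG, a palindrome and so the same on both strands, in 9 of the 23 lysosomal genes that could be matched, and in 6.86% of all 27025 genes with a promoter. The 9 were Atp6v1a, Ctsa, Ctsd, Ctsl, Gaa, Gla, Glb1, Lamp1 and Mcoln1, of which Ctsa, Ctsd, Ctsl and Gaa were called higher. In the whole lysosomal list, 14 of 30 tested members were called higher. The promoters of Ctsd (chr7:142387828-142388077, minus strand) and Ctsa (chr2:164833523-164833772, plus strand) are shown 5′ to 3′, with CACGTG in capitals, because both carry the motif and both rose.
Ctsd: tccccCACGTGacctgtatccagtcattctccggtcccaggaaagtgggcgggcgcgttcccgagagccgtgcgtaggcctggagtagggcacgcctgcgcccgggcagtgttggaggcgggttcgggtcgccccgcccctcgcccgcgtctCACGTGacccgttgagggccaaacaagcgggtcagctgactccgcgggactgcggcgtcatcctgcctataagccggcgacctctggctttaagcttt
Ctsa: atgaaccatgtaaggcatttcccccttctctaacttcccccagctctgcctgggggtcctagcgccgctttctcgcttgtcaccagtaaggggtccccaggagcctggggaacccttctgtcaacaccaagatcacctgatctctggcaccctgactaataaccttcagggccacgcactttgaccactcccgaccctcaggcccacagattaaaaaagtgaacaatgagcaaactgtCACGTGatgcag
The match nearest to the start began 98 bases before it in Ctsd and 12 bases before it in Ctsa. A match describes these letters only, and a link between the motif and the rise was not tested. Mitf rose by 2.8 on the log2 scale (adjusted p = 1.13e-06), and Tfeb was at 0.67 without a call.

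Receptors for microbes and debris were higher in CD9+ cells or not called. Of 19 pattern recognition receptors, 13 were higher and none lower, with a median of 1.59. Clec4n and Clec4d encode the C-type lectins Dectin-2 and MCL, which bind fungal and mycobacterial glycolipids. Clec4n was at 85.4 and 102 CPM in the CD9+ libraries and 6.91 and 11.1 CPM in the F4/80- libraries (log2 fold change 3.38 ± 0.29 (SE), adjusted p = 9.68e-07). Clec4d was at 102 and 154 CPM against 13.7 and 14.1 CPM (log2 fold change 3.2 ± 0.29 (SE), adjusted p = 1.82e-06), and Cd14, the co-receptor for endotoxin, was at 390.4 and 612 CPM against 97.5 and 95.4 CPM (log2 fold change 2.38 ± 0.20 (SE), adjusted p = 7.48e-07). Tlr2 rose by 2.09 and Tlr7 by 1.88 on the log2 scale, and Tlr4, the endotoxin receptor, was at 0.69 without a call.

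Of 17 scavenger and phagocytic receptors, 9 were higher and none lower (median 1.65). Stab1, a scavenger receptor for modified lipoproteins, was at 140.0 and 324 CPM against 10.5 and 9.63 CPM (log2 fold change 4.53 ± 0.40 (SE), adjusted p = 1.35e-06), and its log2 fold change was 3.8 without CD9+ library 2. Msr1, the class A scavenger receptor, rose by 3.6, Axl, another receptor for dying cells, by 2.81, and C3ar1, the receptor for the complement fragment C3a, by 2.74. The Fc receptor chain Fcer1g (0.16) and Fcgr4 (0.26) were not called. Antigen presentation genes mostly were not called, though 10 of 14 had an unadjusted p under 0.05 in edgeR's test. Of the 14, 3 were called higher and 1 lower (median 0.58). The 3 were Ctss, the protease that trims the invariant chain (log2 fold change 2.59 ± 0.24 (SE), adjusted p = 2.28e-06), and the co-stimulatory ligands Cd86 (log2 fold change 1.81 ± 0.16 (SE), adjusted p = 1.24e-06) and Cd80 (log2 fold change 1.8 ± 0.27 (SE), adjusted p = 0.000188). The class II chains H2-Ab1 (0.66), H2-Aa (0.25) and H2-Eb1 (0.64) were not called. H2-Ob, a brake on peptide loading, was lower at 0.786 and 2.71 CPM against 8.94 and 6.28 CPM, with a log2 fold change of -2.17, or -1.46 without CD9+ library 1, -3.26 without CD9+ library 2 and -1.88 (adjusted p = 0.0602) without F4/80- library 1.

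**Figure D3:**
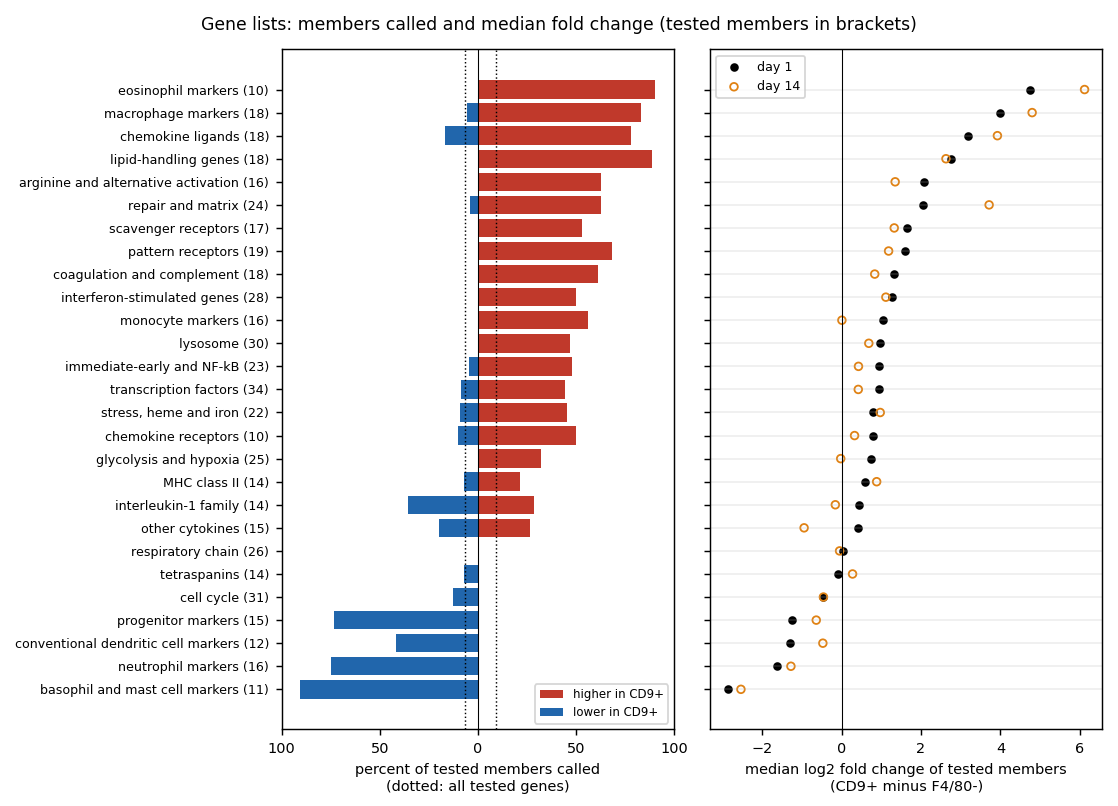
Left, the percent of the tested members of each gene list called higher (to the right of 0) or lower (to the left) in CD9+ cells on day 1, with dotted lines at 8.98% and 6.38% for all tested genes and the number tested in brackets. Right, the median log2 fold change of each list on day 1 (filled points) and day 14 (open points), where the lipid-handling list has a day 1 median of 2.76 and the respiratory chain list 0.041.

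Interleukin-1 family ligands were higher in CD9+ cells and several receptors of the family were lower. Il1b, the main secreted IL-1 (chr2:129364570-129371139, minus strand), was at 373 and 501 CPM in the CD9+ libraries and 81.01 and 72.03 CPM in the F4/80- libraries (log2 fold change 2.51 ± 0.18 (SE), adjusted p = 3.87e-07). Il1a was at 66.1 and 66.8 CPM against 4.99 and 8.0 CPM (log2 fold change 3.35 ± 0.45 (SE), adjusted p = 6.88e-05). Il1rn, which encodes the antagonist that blocks the same receptor, was at 166 and 206 CPM against 34.2 and 39.9 CPM (log2 fold change 2.33 ± 0.25 (SE), adjusted p = 6.97e-06). For all 3 genes the lowest CD9+ library lay above the highest F4/80- library, as the choice of list genes required.

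Il18 rose too (1.81), whereas the IL-18 receptor chains fell. Il18r1 was at 6.22 and 3.54 CPM against 43.4 and 40.4 CPM (log2 fold change -3.07 ± 0.34 (SE), adjusted p = 1.58e-05), and Il18rap was at 62.3 and 50.2 CPM against 224 and 234 CPM (log2 fold change -2.02 ± 0.13 (SE), adjusted p = 1.76e-07). Il1rl1, the receptor for IL-33 that basophils and mast cells carry, was at 7.72 and 7.29 CPM against 31.9 and 28.4 CPM (log2 fold change -2.0 ± 0.35 (SE), adjusted p = 0.000602). The decoy receptor Il1r2 (-1.42) and the IL-18 binding protein Il18bp (-1.78) were called lower as well. Across the family, 4 of 14 were higher and 5 lower (median 0.43), and 6 were higher without CD9+ library 1. The inflammasome genes Nlrp3 (0.92), Casp1 (0.29), Pycard (0.77) and Gsdmd (0.57) were not called.

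Other cytokines were divided, with 4 of 15 higher and 3 lower. The number higher was 7 without CD9+ library 1 and 2 without F4/80- library 2 or in a fit of the 4 libraries alone, and 5 were lower with scaling by library size alone. Il6, an inflammatory cytokine that acts on liver, bone and lymphocytes (chr5:30013114-30019981, plus strand), was on the F4/80- side, at 2.79 and 4.27 CPM in the CD9+ libraries and 54.8 and 63.2 CPM in the F4/80- libraries (log2 fold change -4.09 ± 0.30 (SE), adjusted p = 4.08e-07). Both CD9+ libraries were far below both F4/80- libraries for Il6. Csf1, the growth factor of macrophages, was at 53.9 and 68.7 CPM against 158 and 151 CPM (log2 fold change -1.34 ± 0.21 (SE), adjusted p = 0.000239), while its receptor Csf1r was higher in CD9+ cells, as given above. Tnfsf10, which encodes the death ligand TRAIL, was at 0.786 and 1.146 CPM against 4.49 and 2.65 CPM (-1.9), or -1.47 (adjusted p = 0.0992) without F4/80- library 1. Tnf was not called, with a log2 fold change of 0.41. Nos2, inducible nitric oxide synthase, was higher at 205 and 281 CPM against 27.5 and 50.95 CPM (log2 fold change 2.63 ± 0.33 (SE), adjusted p = 3.68e-05). Lif, an IL-6-type cytokine, was at 6.14 and 34.4 CPM against 4.05 and 2.42 CPM. Its log2 fold change of 2.63 was 3.44 without CD9+ library 1, 0.93 (adjusted p = 0.234) without CD9+ library 2 and 2.31 (adjusted p = 0.0809) without F4/80- library 2. Il23a had a log2 fold change of 2.22, or 1.81 (adjusted p = 0.106) without CD9+ library 1 and 1.81 (adjusted p = 0.134) without F4/80- library 2.

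Chemokine ligands were mostly higher in CD9+ cells, with 14 of 18 higher, 3 lower and a median of 3.19. Ccl7 and Ccl2 attract monocytes through CCR2. Ccl7 was at 143 and 153 CPM in the CD9+ libraries and 3.26 and 4.61 CPM in the F4/80- libraries (log2 fold change 5.23 ± 0.32 (SE), adjusted p = 1.39e-07), and Ccl2 was at 551 and 388 CPM against 41.3 and 46.3 CPM (log2 fold change 3.42 ± 0.22 (SE), adjusted p = 1.70e-07). The neutrophil attractants Cxcl1, Cxcl2 and Cxcl3 rose by 3.5, 3.15 and 3.22 on the log2 scale. The list also holds Pf4 and Ppbp, which platelets store. Ccl3 and Ccl4, which attract monocytes and lymphocytes, were lower in CD9+ cells. Ccl3 was at 144 and 150.2 CPM against 503 and 416 CPM (log2 fold change -1.64 ± 0.24 (SE), adjusted p = 0.000169) and Ccl4 at 29.4 and 30.2 CPM against 176 and 132 CPM (log2 fold change -2.37 ± 0.28 (SE), adjusted p = 1.91e-05). Ccl22, a dendritic cell product, was at 0 and 1.56 CPM against 7.55 and 4.33 CPM, with a log2 fold change of -3.04, or -1.89 (adjusted p = 0.0762) without CD9+ library 1, -9.36 without CD9+ library 2, -2.57 (adjusted p = 0.162) without F4/80- library 1 and -3.38 (adjusted p = 0.063) without F4/80- library 2. Blocked by replicate number it was -3.02 (adjusted p = 0.0602).

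Among chemokine receptors, 5 of 10 were higher and 1 lower, with 3 higher under scaling by library size alone. Ccr2, the receptor for Ccl2 and Ccl7, was higher by 1.04 (adjusted p = 0.00238), just past the 2-fold limit. Cxcr2, the receptor for neutrophil attractants, was lower at 43.7 and 15.01 CPM against 142 and 109 CPM, with a log2 fold change of -2.08, or -3.03 without CD9+ library 1.

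Arginine metabolism and alternative activation genes were higher for 10 of 16 members and lower for none (median 2.08). Arg1, the enzyme that splits arginine to ornithine and urea (chr10:24915221-24927484, minus strand), was at 2203 and 2568 CPM in the CD9+ libraries and 112 and 131 CPM in the F4/80- libraries (log2 fold change 4.29 ± 0.21 (SE), adjusted p = 1.49e-08). Arg2, the mitochondrial arginase, rose by 2.63, and Nos2, which uses the same substrate, rose as given above. Tgm2, transglutaminase 2, which crosslinks matrix proteins, was at 303 and 616 CPM against 25.8 and 31.2 CPM (log2 fold change 4.01 ± 0.30 (SE), adjusted p = 4.08e-07), with a log2 fold change of 3.41 without CD9+ library 2. Ccl24, a chemokine for eosinophils, was at 11.9 and 10.8 CPM against 1.14 and 0.279 CPM. Its log2 fold change of 4.0 was 5.3 without F4/80- library 1 and 3.32 without F4/80- library 2. Acod1, which makes itaconate (0.39), and the chitinase-like gene Chil3 (-0.71) were not called.

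Repair and matrix genes were higher for 15 of 24 members and lower for 1 (median 2.04). Beside Spp1, Thbs1 and Fn1, Mmp19, a metalloproteinase, was at 226 and 424 CPM against 22.4 and 29.8 CPM (log2 fold change 3.64 ± 0.31 (SE), adjusted p = 1.07e-06). The growth factors Vegfa, which drives vessel growth, and Pdgfa, which acts on mesenchymal cells, rose by 2.09 (adjusted p = 2.78e-06) and 3.43 (adjusted p = 0.0115). Igf1, insulin-like growth factor 1, was at 2.57 and 1.88 CPM against 0.197 and 0.558 CPM, with a log2 fold change of 2.53, or 1.99 (adjusted p = 0.0818) without F4/80- library 1 and 3.45 without F4/80- library 2. Tgfb1 was not called (0.99). Mmp9, a gelatinase of neutrophil granules and osteoclasts, was lower at 188 and 82.1 CPM against 544 and 409.8 CPM, with a log2 fold change of -1.81, or -2.51 without CD9+ library 1, -1.34 (adjusted p = 0.0511) without CD9+ library 2 and -1.59 (adjusted p = 0.0601) without F4/80- library 1. Complement and coagulation genes were higher for 11 of 18 and lower for none (median 1.33), among them F7, coagulation factor VII (4.1), and Thbd, thrombomodulin (2.64). Tissue factor, F3, was not called (0.89).

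Iron, heme and oxidative stress genes were higher for 10 of 22 members and lower for 2 (median 0.79). Hmox1, which breaks heme down (chr8:75093621-75100589, plus strand), was at 847 and 1595 CPM in the CD9+ libraries and 83.9 and 126 CPM in the F4/80- libraries (log2 fold change 3.54 ± 0.30 (SE), adjusted p = 1.03e-06). Fth1, ferritin heavy chain, was at 2934 and 3866 CPM against 578 and 725 CPM (log2 fold change 2.38 ± 0.22 (SE), adjusted p = 2.10e-06), and Slc11a1, a phagosomal iron transporter, was at 112 and 164 CPM against 14.9 and 17.8 CPM (log2 fold change 3.07 ± 0.24 (SE), adjusted p = 6.36e-07). Slc40a1, the iron exporter ferroportin, was lower at 21.6 and 15.01 CPM against 56.03 and 51.6 CPM (log2 fold change -1.55 ± 0.28 (SE), adjusted p = 0.000713). Hspa1b, an inducible heat shock protein, was called lower at 6.86 and 15.4 CPM against 45.2 and 19.2 CPM, with a log2 fold change of -1.55, or -1.03 (adjusted p = 0.114) without CD9+ library 1, -2.23 without CD9+ library 2 and -0.80 (adjusted p = 0.287) without F4/80- library 1.

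Hypoxia and glucose genes were higher for 8 of 25 members and lower for none (median 0.75). Slc2a1, the glucose transporter GLUT1, was at 149 and 314 CPM against 47.2 and 59.6 CPM (log2 fold change 2.11 ± 0.25 (SE), adjusted p = 2.19e-05), with a log2 fold change of 1.48 without CD9+ library 2. Hif1a, the oxygen-regulated transcription factor subunit, was at 477 and 519 CPM against 129 and 128 CPM (log2 fold change 1.95 ± 0.14 (SE), adjusted p = 4.08e-07). The core glycolytic enzymes Gapdh (0.20), Ldha (0.26) and Pgk1 (0.44) were not called. No mitochondrial respiratory chain subunit of the 26 tested was called by edgeR, and their log2 fold changes ran from -0.61 to 0.69 with a median of 0.041. Of these 26, 6 had an unadjusted p under 0.05, and DESeq2 called 0. Without CD9+ library 1, 13 hypoxia and glucose genes were called higher and 3 respiratory chain subunits lower.

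Interferon-stimulated genes were higher for 14 of 28 members and lower for none (median 1.27). Rsad2, the antiviral enzyme viperin, was at 31.7 and 22.6 CPM against 2.57 and 3.21 CPM (log2 fold change 3.23 ± 0.27 (SE), adjusted p = 8.21e-07). Ifi204, a nuclear DNA sensor, was at 119.9 and 73.6 CPM against 13.5 and 9.96 CPM (log2 fold change 3.05 ± 0.27 (SE), adjusted p = 1.40e-06). Both CD9+ libraries were above both F4/80- libraries for these 2 genes, as the choice of list genes required. Ifit3 was less even, at 9.0 and 1.77 CPM against 0.938 and 0.931 CPM. Its log2 fold change of 2.56 was 0.95 (adjusted p = 0.271) without CD9+ library 1, 3.26 without CD9+ library 2 and 2.55 (adjusted p = 0.0502) without F4/80- library 2. Ifit2 was not called (-0.26).

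Several transcription factors of macrophages were higher in CD9+ cells and several of granulocyte progenitors were lower. Of 34 factors, 15 were higher and 3 lower (median 0.93). Maf, a factor of the terminal programme of macrophages (chr8:115682942-115707794, minus strand), was at 89.5 and 136 CPM in the CD9+ libraries and 5.13 and 4.61 CPM in the F4/80- libraries (log2 fold change 4.53 ± 0.38 (SE), adjusted p = 8.31e-07). Nr1h3, the oxysterol receptor LXRα, rose by 3.69, and Cebpb, a factor of inflammatory myeloid cells, by 2.94.

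Gfi1, a repressor needed for granulocyte formation, was lower at 7.29 and 8.13 CPM against 29.3 and 27.1 CPM (log2 fold change -1.87 ± 0.27 (SE), adjusted p = 0.000145). Myb, a progenitor factor, was at 56.9 and 25.5 CPM against 132 and 148 CPM (log2 fold change -1.75 ± 0.25 (SE), adjusted p = 0.000122), with a log2 fold change of -2.42 without CD9+ library 1. Cebpe, which controls granule genes, had a log2 fold change of -1.05, or -1.75 without CD9+ library 1, -0.58 (adjusted p = 0.0667) without CD9+ library 2 and -0.95 (adjusted p = 0.0722) without F4/80- library 1. Spi1, which encodes PU.1 and is needed in all myeloid cells, was not called (0.32). Immediate early genes, subunits of NF-κB (Relb among them) and its inhibitors were higher for 11 of 23 and lower for 1 (median 0.93). Atf3 was at 486 and 526 CPM against 129.7 and 114 CPM (log2 fold change 2.05 ± 0.18 (SE), adjusted p = 1.07e-06), Nfkbie at 84.7 and 103 CPM against 26.5 and 30.3 CPM (log2 fold change 1.72 ± 0.19 (SE), adjusted p = 9.18e-06) and Relb at 23.7 and 37.9 CPM against 9.97 and 9.35 CPM (log2 fold change 1.67 ± 0.26 (SE), adjusted p = 0.000227). Egr3 was lower at 5.93 and 9.17 CPM against 33.3 and 35.1 CPM (log2 fold change -2.2 ± 0.29 (SE), adjusted p = 5.07e-05). The number called higher in this list was 6 to 12 when a library was left out, the lowest without CD9+ library 2.

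Most cell cycle genes were not called, though 16 of 31 had an unadjusted p under 0.05 in edgeR's test. None of 31 was higher and 4 were lower (Ccne2, Ccnd2, Rrm2 and Mcm4), with a median of -0.48. Ccne2, a cyclin of S phase entry, was at 34.1 and 18.5 CPM against 86.3 and 77.5 CPM (log2 fold change -1.63 ± 0.27 (SE), adjusted p = 0.000446). Ccnd2 had a log2 fold change of -1.41, or -1.04 (adjusted p = 0.0501) without CD9+ library 2 and -1.26 (adjusted p = 0.0537) without F4/80- library 2, and Rrm2, the nucleotide reductase subunit, of -1.05, or -0.80 (adjusted p = 0.0144) without CD9+ library 2. The number lower was 6 without CD9+ library 1 and 1 without CD9+ library 2, and 7 with scaling by library size alone. Mki67 was not called (-0.54). Of 14 tetraspanins, 1 was called, Tspan2, at -1.150, or -0.87 (adjusted p = 0.0204) without CD9+ library 2. Without CD9+ library 1, 2 tetraspanins were called higher.

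The 2 sorts also differed in the transcripts of cell types other than macrophages, some of which the F4/80- gate can include. Their part in the differences given above was not tested. Eosinophil genes were higher in CD9+ cells for 9 of 10 members and lower for none, with a median of 4.74. Their summed level was 775 and 795 CPM in the CD9+ libraries and 74.3 and 76.9 CPM in the F4/80- libraries, 37.5 and 80.7 CPM in CX3CR1+ macrophages and 69.01 and 66.04 CPM in neutrophils. Epx, eosinophil peroxidase (chr11:87864000-87875536, minus strand), was at 153 and 138 CPM in the CD9+ libraries and 0 and 2.75 CPM in the F4/80- libraries (log2 fold change 6.69 ± 0.69 (SE), adjusted p = 5.46e-06). Ear1 and Ear6, ribonucleases of eosinophil granules whose family members share sequence, were at 37.8 and 24.8 CPM against 0 and 0.233 CPM and at 38.8 and 32.6 CPM against 0.0494 and 0.326 CPM. The log2 fold change was 7.93 for Ear1, or 7.02 without F4/80- library 1 and 11.69 without F4/80- library 2. For Ear6 it was 7.48, or 6.74 without F4/80- library 1 and 9.25 without F4/80- library 2, and for Epx 5.72 without F4/80- library 1 and 13.9 without F4/80- library 2. Ccr3, the eotaxin receptor, was at 33.9 and 16.4 CPM against 1.88 and 3.68 CPM, with a log2 fold change of 3.18, or 2.58 without CD9+ library 1. Mouse eosinophils carry F4/80 on their surface. Siglecf was not called (0.15).

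Basophil and mast cell genes were lower in CD9+ cells for 10 of 11 members, with none higher and a median of -2.87. Their summed level was 212 and 120.3 CPM in the CD9+ libraries and 1346 and 1125 CPM in the F4/80- libraries, 1.61 and 3.01 CPM in CX3CR1+ macrophages and 33.2 and 25.4 CPM in neutrophils. Gata2, the transcription factor of basophils and mast cells (chr6:88193891-88207032, plus strand), was at 32.9 and 15.1 CPM in the CD9+ libraries and 285 and 267 CPM in the F4/80- libraries (log2 fold change -3.5 ± 0.33 (SE), adjusted p = 2.53e-06), with a log2 fold change of -4.16 without CD9+ library 1. Cd200r3, an activating receptor of basophils, was at 5.07 and 2.5 CPM against 84.2 and 68.3 CPM (log2 fold change -4.29 ± 0.41 (SE), adjusted p = 4.21e-06), with -4.89 without CD9+ library 1. Ms4a2, the β chain of the IgE receptor, was at 22.4 and 5.84 CPM against 156 and 108 CPM (log2 fold change -3.19 ± 0.40 (SE), adjusted p = 3.68e-05), with -4.47 without CD9+ library 1 and -2.56 without CD9+ library 2. The basophil proteases Prss34 and Mcpt8 were at 60.01 and 43.8 CPM against 355 and 288 CPM and at 30.4 and 23.8 CPM against 228 and 191 CPM. Both CD9+ libraries were below both F4/80- libraries for all of these genes, and above the floor. The choice of list genes required no overlap for Gata2, Cd200r3 and Ms4a2.

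Many promoters of this list hold AGATAA, a form of the GATA factor motif. Searched on both strands of the 250 bases before the RefSeq start, it was in 7 of 12 matched basophil and mast cell genes (Cd200r3, Cpa3, Fcer1a, Il13, Il1rl1, Ms4a2 and Prss34), in 11.4% of all 27025 genes with a promoter, in 2 of 8 matched eosinophil genes and in none of 14 matched macrophage genes. The promoters of Prss34 (chr17:25298144-25298393, plus strand) and Ms4a2 (chr19:11623720-11623969, minus strand) are shown 5′ to 3′, with the motif or its reverse complement in capitals. Both were picked because they carry the motif and were lower in CD9+ cells, and a link between the motif and the fall was not tested.
Prss34: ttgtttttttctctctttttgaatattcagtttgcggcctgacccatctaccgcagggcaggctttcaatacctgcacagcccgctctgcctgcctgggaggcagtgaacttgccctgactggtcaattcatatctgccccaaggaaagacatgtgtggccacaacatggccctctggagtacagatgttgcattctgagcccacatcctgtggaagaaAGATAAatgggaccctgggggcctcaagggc
Ms4a2: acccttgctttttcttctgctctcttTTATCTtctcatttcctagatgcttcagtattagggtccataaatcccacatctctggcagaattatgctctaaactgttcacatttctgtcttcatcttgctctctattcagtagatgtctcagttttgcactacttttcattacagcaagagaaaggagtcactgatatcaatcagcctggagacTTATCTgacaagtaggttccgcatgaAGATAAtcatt
Prss34 had 1 match, 31 bases before the start, and Ms4a2 had 3, the nearest 11 bases before it. A further 4 motifs were searched in the same windows. GAGGAA, the core read by PU.1, was in 9 of 14 matched macrophage genes and in 9 of 14 matched neutrophil genes, against 25.9% of all genes. The AP-1 motif TGAGTCA was in 5.16%, the MAF motif TGCTGAC in 4.31% and the C/EBP motif TTGCAAT in 2.24% of all genes. The letters of no motif searched contain those of another.

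**Figure D4:**
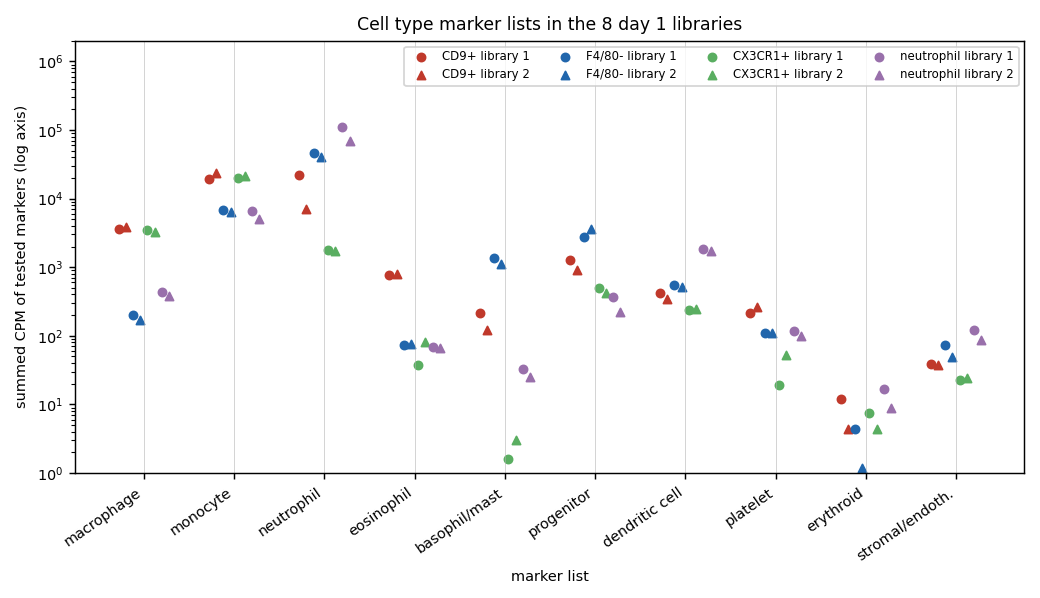
Summed CPM of the tested markers of 10 cell types, on a log axis, with a point for each of the 8 day 1 libraries and a colour for each population. Macrophage and eosinophil sums are higher in both CD9+ libraries than in both F4/80- libraries, and neutrophil, progenitor and basophil and mast cell sums are lower.

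Neutrophil genes were lower in CD9+ cells, with a wide gap between the 2 CD9+ libraries. Of 16 members, 12 were called lower and none higher (median -1.63). Ngp, a granule protein, was at 6281 and 1489 CPM in the CD9+ libraries and 13036 and 11662 CPM in the F4/80- libraries. Its log2 fold change of -1.67 was -3.02 without CD9+ library 1, -0.97 (adjusted p = 0.0858) without CD9+ library 2, -1.58 (adjusted p = 0.0833) without F4/80- library 1 and -1.75 (adjusted p = 0.058) without F4/80- library 2. The genes with the largest fall in CPM were Ngp, Ltf, S100a9, Lcn2, S100a8 and Mpo, and CD9+ library 1 was nearer to the F4/80- level for each neutrophil member of them. S100a8, a calcium-binding alarmin subunit, was at 1921 and 438 CPM against 4377 and 3821 CPM (-1.8), or -3.2 without CD9+ library 1 and -1.09 without CD9+ library 2. Its partner S100a9 had a log2 fold change of -1.36, or -2.39 without CD9+ library 1, -0.75 (adjusted p = 0.181) without CD9+ library 2, -1.24 (adjusted p = 0.13) without F4/80- library 1 and -1.46 (adjusted p = 0.076) without F4/80- library 2. For Ltf, lactoferrin, the value was -1.68, or -2.63 without CD9+ library 1, -1.1 (adjusted p = 0.138) without CD9+ library 2, -1.55 (adjusted p = 0.101) without F4/80- library 1 and -1.8 (adjusted p = 0.0583) without F4/80- library 2, and for Lcn2, lipocalin 2, -1.66, or -2.64 without CD9+ library 1 and -1.07 without CD9+ library 2. Hdc, which makes histamine in basophils and neutrophils, was at 109 and 47.3 CPM against 383 and 389 CPM (-2.3), or -3.0 without CD9+ library 1. The number of neutrophil genes called lower was 13 without CD9+ library 1, 6 without CD9+ library 2, 7 and 10 without F4/80- libraries 1 and 2, and 3 in a fit of the 4 libraries alone. Cxcr2, Mmp9 and Cebpe, given with other groups, were also lower in CD9+ library 2 than in CD9+ library 1.

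Progenitor genes were lower for 11 of 15 and higher for none (median -1.26), with a summed level of 1287 and 907 CPM in the CD9+ libraries and 2739 and 3575 CPM in the F4/80- libraries, 504 and 419 CPM in CX3CR1+ macrophages and 371 and 223 CPM in neutrophils. Mpo, myeloperoxidase of early granules (chr11:87793581-87804413, plus strand), was at 498 and 321 CPM in the CD9+ libraries and 1463 and 2049.7 CPM in the F4/80- libraries (log2 fold change -2.1 ± 0.36 (SE), adjusted p = 0.00053). Flt3, a cytokine receptor of progenitors and dendritic cells, was at 5.14 and 6.15 CPM against 21.4 and 28.4 CPM (log2 fold change -2.15 ± 0.38 (SE), adjusted p = 0.000694). Both libraries of CD9+ cells were lower than both F4/80- libraries for Mpo and Flt3, as the choice of list genes required. The number of progenitor genes called lower was 6 without CD9+ library 2 or F4/80- library 2, and 7 in a fit of the 4 libraries alone.

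Other cell types gave shorter lists. Of 12 conventional dendritic cell genes, 5 were lower and none higher, among them Mgl2, a C-type lectin, at 1.14 and 1.67 CPM against 5.13 and 6.19 CPM (log2 fold change -2.03 ± 0.45 (SE), adjusted p = 0.00352). Fscn1, the actin bundler of migrating dendritic cells, was at 0 and 0.208 CPM against 1.53 and 3.21 CPM. Its CD9+ values were at or under the floor, so it was at least 8.997-fold lower, and its fitted log2 fold change was -3.42 without CD9+ library 1, -8.04 without CD9+ library 2 and -3.98 without F4/80- library 2. The number lower in this list was 2 in a fit of the 4 libraries alone and 8 with scaling by library size alone. Of 7 platelet genes, 4 were higher and 1 lower (median 2.67), and 2 were higher without CD9+ library 1 or F4/80- library 2. Ppbp, a platelet chemokine, was at 27.7 and 43.2 CPM against 0.938 and 0.838 CPM (log2 fold change 5.31 ± 0.86 (SE), adjusted p = 0.000344), and Tubb1, the platelet β-tubulin, was at 6.93 and 2.81 CPM against 0.642 and 0.0931 CPM, with a log2 fold change of 3.72, or 2.95 (adjusted p = 0.0656) without CD9+ library 1, 5.59 without F4/80- library 1 and 2.92 (adjusted p = 0.151) without F4/80- library 2. Itga2b, the platelet integrin that is also on basophil and mast cell precursors, was lower at 27.1 and 30.4 CPM against 74.7 and 64.4 CPM (log2 fold change -1.27 ± 0.24 (SE), adjusted p = 0.000961).

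Of 4 T and NK cell genes tested, 2 were lower: Klrd1 at 0.143 and 0.625 CPM against 5.33 and 5.26 CPM (-3.86), or -3.03 without CD9+ library 1 and -5.12 without CD9+ library 2, and Nkg7 at -1.29, or -0.95 (adjusted p = 0.045) without CD9+ library 2 and -0.90 (adjusted p = 0.0982) without F4/80- library 2. In the B and plasma cell list Sdc1, which encodes syndecan 1, was higher at 30.1 and 49.1 CPM against 4.69 and 7.72 CPM (log2 fold change 2.67 ± 0.42 (SE), adjusted p = 0.000276). Cd79b was called lower at -1.42, or -1.48 (adjusted p = 0.0831) without CD9+ library 1, -1.35 (adjusted p = 0.115) without CD9+ library 2 and -0.95 (adjusted p = 0.286) without F4/80- library 1. In a fit blocked by replicate number it was -1.41 (adjusted p = 0.0604). Alas2, the heme synthesis enzyme of erythroid cells, was at or under the floor in both F4/80- libraries and at least 8.36-fold higher in CD9+ cells, with a fitted log2 fold change of 7.08, or 7.03 (adjusted p = 0.0698) without F4/80- library 1 and 7.02 (adjusted p = 0.0726) without F4/80- library 2. No stromal or endothelial gene of the 6 tested was called by edgeR (1 had an unadjusted p under 0.05, and DESeq2 called 1), and no plasmacytoid dendritic cell gene of the 5 tested was (3 had an unadjusted p under 0.05, and DESeq2 called 0). Of 9 osteoclast genes, 4 were higher and 1 lower (0 without CD9+ library 2 or F4/80- library 1), with Acp5, tartrate-resistant acid phosphatase, at 83.8 and 61.4 CPM against 6.91 and 4.23 CPM (log2 fold change 3.71 ± 0.39 (SE), adjusted p = 6.70e-06).

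Among called genes with a mean of at least 10 CPM in the higher population and no overlap, the 10 largest decreases by fold included genes of immunoglobulin, basophil and lymphoid type. They were Ighg2b, Iglc1, Cd7, Cd200r3, Iglc3, Fam174b, Il6, Osbpl5, Cyp11a1 and Slc18a2. Cyp11a1, the enzyme that starts steroid synthesis from cholesterol, was at 4.36 and 6.36 CPM in the CD9+ libraries and 85.2 and 76.3 CPM in the F4/80- libraries (log2 fold change -3.93 ± 0.38 (SE), adjusted p = 5.02e-06). Slc18a2, the vesicular monoamine transporter, was at 0.572 and 1.77 CPM against 17.7 and 15.4 CPM (-3.88), or -3.18 without CD9+ library 1 and -4.83 without CD9+ library 2. Osbpl5, an oxysterol-binding protein, was at 0.786 and 0.938 CPM against 16.7 and 11.1 CPM (log2 fold change -4.01 ± 0.54 (SE), adjusted p = 7.54e-05). Both F4/80- libraries were high for these 3 genes. Cd7, a lymphoid and progenitor surface protein, was at 0.929 and 0.104 CPM against 16.98 and 14.5 CPM (-4.77), or -7.09 without CD9+ library 1 and -4.07 without CD9+ library 2. Fam174b was at 1.14 and 0 CPM against 11.5 and 11.5 CPM (-4.17), or -10.29 without CD9+ library 1 and -3.32 without CD9+ library 2.

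The immunoglobulin genes were uneven. Ighg2b, a heavy chain constant region, was at 0.0714 and 0 CPM in the CD9+ libraries and 0.148 and 77.9 CPM in the F4/80- libraries, so a single F4/80- library held its reads. F4/80- library 1 was itself at the floor of 3 counts, so no lower bound on the fold holds for both F4/80- libraries. Without CD9+ library 1 or 2 the fitted log2 fold change was -12.05 or -8.92, and the call was lost in each of these fits. The fitted value was -10.55 without F4/80- library 1, and -1.6 without F4/80- library 2, where the call was lost as well. Iglc1, a λ light chain constant region that shares sequence with its neighbours, was at 1.36 and 0 CPM against 59.3 and 39.6 CPM (log2 fold change -5.98 ± 0.69 (SE), adjusted p = 2.59e-05), or -12.38 without CD9+ library 1 and -5.18 without CD9+ library 2. Iglc3 was at 0.857 and 0.625 CPM against 26.6 and 1.35 CPM (-4.2), or -4.43 (adjusted p = 0.0669) without CD9+ library 1, -4.01 (adjusted p = 0.0936) without CD9+ library 2, -0.84 (adjusted p = 0.714) without F4/80- library 1 and -5.12 without F4/80- library 2.

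Compared with the other populations on day 1, the genes higher in CD9+ than in F4/80- cells were not all highest in CD9+ cells. Of the 1080, CD9+ cells had the highest mean of the 4 populations for 481 (44.5%), CX3CR1+ macrophages for 313 (29.0%) and neutrophils for 286 (26.5%). Of the 768 genes lower in CD9+ cells, F4/80- cells were highest for 417 (54.3%), neutrophils for 329 (42.8%) and CX3CR1+ macrophages for 22 (2.86%). Over all tested genes, neutrophils were highest for 39.5%, F4/80- cells for 22.5%, CX3CR1+ macrophages for 20.9% and CD9+ cells for 17.1%. The choice of the genes keeps F4/80- cells from being highest among the 1080 and CD9+ cells among the 768, so nothing is read from these shares. Arg1 was at 375 and 488 CPM in CX3CR1+ macrophages and 83.6 and 78.8 CPM in neutrophils, so both CD9+ libraries were the highest for it. Adgre1 was at 174 and 186 CPM in CX3CR1+ macrophages. Il6 was at 2.95 and 2.11 CPM in CX3CR1+ macrophages and 0.43 and 0 CPM in neutrophils, and Gata2 at 0.0447 and 0.317 and 2.08 and 2.02 CPM, so the F4/80- libraries were highest for both. These groupings are a description of the 8 day 1 libraries.

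On day 14 the same contrast called 917 genes (7.62%), 771 higher in CD9+ cells and 146 lower, in 4 libraries that the day 1 contrast does not use. Of the 1080 genes higher on day 1, 547 were also called higher on day 14 (50.6% of the day 1 genes and 70.9% of the 771 on day 14). Of the 768 lower on day 1, 105 were called lower on day 14 (13.7%, or 71.9% of the 146), and 7 were called higher there. No gene higher on day 1 was called lower on day 14. A further 258 genes were called on day 14 but not on day 1. A call on a single day does not show that the days differ, and the difference itself, tested as day 1 minus day 14 in the same fit, was called for 209 genes (1.74%), 73 above 0 and 136 below 0. Of the 1848 genes called on day 1, 143 had a called difference.

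Genes whose excess in CD9+ cells was larger on day 1 included Fn1, Vegfa, Hif1a, Atf3 and Aif1. On day 14 Fn1 was at 3361 and 4634 CPM in CD9+ cells and 1386 and 1275 CPM in F4/80- cells, and the difference between days was 1.84 ± 0.32 (SE, adjusted p = 0.00944). The CD9+ libraries were therefore lower for Fn1 on day 14 than on day 1, and the F4/80- libraries were close on both days. Hif1a was at 157 and 179 CPM and 97.1 and 95.3 CPM on day 14 (difference 1.149 ± 0.20, adjusted p = 0.00944). Ednrb, an endothelin receptor, was at 26.01 and 24.8 CPM against 0.889 and 1.63 CPM on day 1 and at 1.25 and 1.44 against 1.41 and 0.665 CPM on day 14 (difference 3.97 ± 0.68, adjusted p = 0.0105).

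Arg1 and Stab1 showed the opposite. Arg1 was at 33.6 and 44.5 CPM in CD9+ cells and 0 and 0.166 CPM in F4/80- cells on day 14, below the day 1 level of each population (day 1 minus day 14 -4.5 ± 0.66, adjusted p = 0.00412). Stab1 was at 141 and 242 CPM in CD9+ cells and 0.0745 and 0.333 CPM in F4/80- cells on day 14 (difference -5.33 ± 0.86, adjusted p = 0.00775). Igf1 was at 27.7 and 42.6 CPM against 0.149 and 0 CPM (difference -6.12 ± 1.149, adjusted p = 0.0144). The F4/80- libraries of day 14 were at or under the floor of 3 counts for Arg1 and Igf1, so the size of these 2 differences depends on the model's prior count. For Stab1, F4/80- library 1 of day 14 was under the floor and library 2 was above it. Mmp9, lower in CD9+ cells on day 1, was higher in them on day 14, at 165 and 144 CPM against 29.04 and 45.6 CPM (difference -3.86 ± 0.66, adjusted p = 0.0094).

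None of the 7 differences with values here was called without F4/80- library 1 of day 14, where their estimates kept their sign. The difference of Fn1 was also not called without F4/80- library 2 of day 1, and that of Igf1 without F4/80- library 2 of day 1, CD9+ library 2 of day 14 or F4/80- library 2 of day 14. The other 5 were called in each of the remaining 7 fits.

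The size of several differences depended on 1 library. For Arg1 the estimate was -7.78 without F4/80- library 2 of day 14 and -3.51 without F4/80- library 1 of day 14. For Igf1 it was -9.38 without F4/80- library 1 of day 14 and -5.2 without F4/80- library 2 of day 1. For Stab1 it was -6.64 and -4.6 without F4/80- libraries 2 and 1 of day 14. The estimate for Mmp9 was -4.58 without CD9+ library 1 of day 1, and that for Ednrb was 3.32 without F4/80- library 1 of day 14. For Fn1 (1.62 to 2.09) and Hif1a (1.06 to 1.24) no library moved the estimate by over 1.5-fold. The number of genes with a called difference was 15 without F4/80- library 1 of day 14, 968 without CD9+ library 1 of day 1 and 74 to 302 without another of the 8 libraries.

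**Figure D5:**
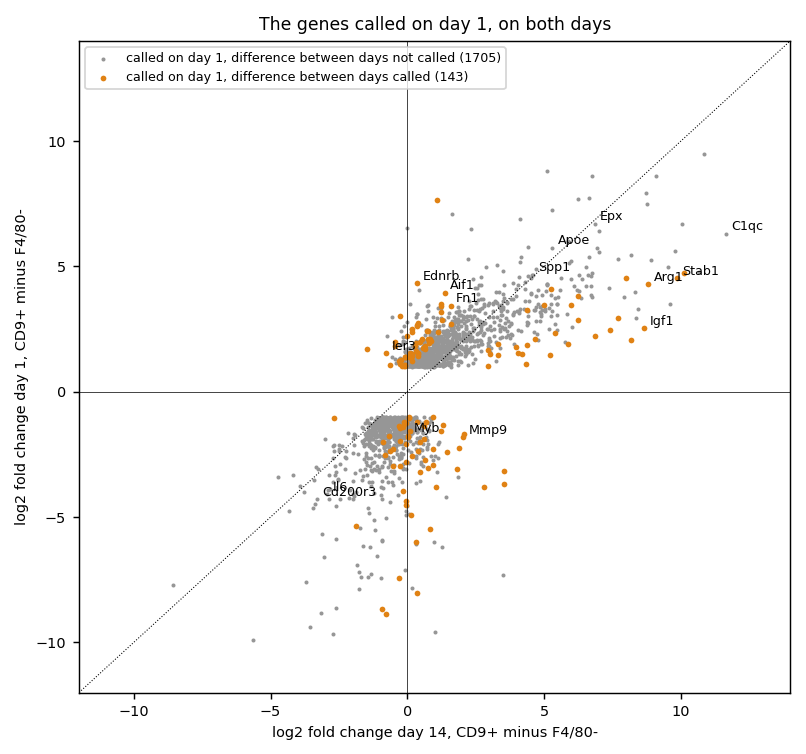
Log2 fold change, CD9+ minus F4/80-, on day 14 (horizontal axis) and day 1 (vertical axis) for each of the 1848 genes called on day 1, with a dotted line where both are equal. The 143 genes with a called difference between the days are coloured, with Fn1 and Ednrb above the line and Stab1, Igf1 and Arg1 below it.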

How the data were processed

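Bulk RNA-seq was done on sorted cells pooled from 5 to 7 mice, with RNA amplified by a stranded SMART-Seq kit and sequenced as paired ends. The deposited values are raw counts per gene, which the authors made by alignment to mm10 with STAR and counting of Gencode exons. From these counts, edgeR 4.0.16 (R 4.3.3, limma 3.58.1) was fitted to all 16 libraries as 8 groups with TMM factors and 8 residual degrees of freedom, since 2 libraries per group say little about spread. Genes needed a mean of 3 CPM in at least 1 group. A gene was called at a Benjamini-Hochberg adjusted p under 0.05 and at least a 2-fold change (quasi-likelihood test). SE is the log2 fold change over the root of its F statistic. Groups came from the labels. Totals ran from 9233952 to 19814119 counts, and a floor of 3 counts per library was used, which covers counting error only. The genes named were the sort antigens and the 10 largest folds each way with 10 CPM in the higher group. Added to these were the 6 largest CPM differences each way, the first 3 called genes each way of 35 lists, and the largest differences between days. Other list members were given as examples after their values were seen. By the rule, the largest folds and the list genes had no overlap of the 2 populations, so remarks saying so were fixed in advance. A few genes that this rule selects are not reported here, though counts include them. The members and lists were chosen with earlier results of these data known. Alternatives were other scalings and filters, DESeq2 1.42.0, glmTreat, fits of 4 or 8 libraries, a replicate block and leaving out each library. Pool names in the labels recur across populations, which share mice. Deviations from the group means of CD9+ and F4/80- libraries of equal number correlated at 0.012 on day 1 and 0.051 on day 14, and blocked values are given where they end a call. The code was tested on simulated data. Gene positions are those of a Gencode annotation of GRCm38, and promoters and their sequences are from RefSeq (GRCm38.p6). Genes with near-identical copies (Ear, Iglc, Hba and Hspa1 families) have uncertain counts.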

Additional observations from a re-analysis of the deposited data

Results flagged for a closer look

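For 24 of the genes named here, the log2 fold change between CD9+ and F4/80- cells differed between day 1 and day 14 by the test of the difference itself (edgeR's quasi-likelihood test on day 1 minus day 14, called for 1.74% of tested genes). The direction was positive, meaning a larger value on day 1, for 11 genes. These were Ednrb (3.97), Aif1, a calcium-binding protein of macrophages (2.57), Oplah (2.41), Ms4a8a (2.34), Arhgef37 (2.33), Ier3, an early response gene (2.31), Fn1 (1.84), Vegfa (1.57), Atf3 (1.24), Cd86 (1.17) and Hif1a (1.149).

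The difference was negative for 13 genes: Slamf9 (-6.93), Lyve1 (-6.6), Iglc1 (-6.28), Igf1 (-6.12), Ahnak2 (-6.12), Cspg4, a chondroitin sulfate proteoglycan (-5.38), Stab1 (-5.33), Arg1 (-4.5), Mmp9 (-3.86), Hspa1b (-2.76), Hdc (-1.79), Myb (-1.78) and Il18rap (-1.14). Of these, Mmp9 was lower in CD9+ cells on day 1 and higher on day 14, and Lyve1 was at 3.08 and 2.56 CPM in CD9+ cells and 0.298 and 0.499 CPM in F4/80- cells on day 14. Slamf9, a surface receptor of the SLAM family, was at 0.143 and 0.521 CPM against 2.47 and 0.698 CPM on day 1 and at 9.24 and 12.4 against 0.298 and 0.582 CPM on day 14. Arg1, Stab1, Igf1, Cspg4 and Ahnak2 were called higher in CD9+ cells on both days. The day 1 log2 fold change of Ahnak2 was 2.05, or 1.73 (adjusted p = 0.101) without F4/80- library 1, and that of Cspg4 was 4.72, or 5.43 without F4/80- library 2. For Arg1, Igf1, Cspg4 and Ahnak2 both F4/80- libraries of day 14 were at or under the floor of 3 counts, so the size of the difference depends on the model's prior count. The same holds for Lyve1, where both CD9+ libraries of day 1 were at or under it. Single libraries were at or under it for other genes, such as Stab1 (F4/80- library 1 of day 14), Iglc1 (CD9+ library 2 of day 1) and Slamf9 (CD9+ library 1 of day 1).

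The call of a difference was lost for 23 of the 24 genes, all but Iglc1, when F4/80- library 1 of day 14 was left out. For 11 of the 24 genes this was the only library of the 8 whose omission lost the call. On day 1 itself, Ier3 was at 1.54, or 0.94 (adjusted p = 0.00221) without CD9+ library 2, and Arhgef37 at 2.51, or 1.91 without CD9+ library 2. The calls of Oplah, Ms4a8a and Hdc held in 2 of the 8 fits, and those of Cd86, Hspa1b and Myb in 3. No sign of an estimate changed for any of the 24.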

How the results depend on the processing

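Of the genes called on day 1, 1 changed sign under an alternative that could test it: Gm5547 went from 2.46 to -0.79 (log2 fold change) without CD9+ library 1, where Gucy2g went from 6.54 to 0. Both were named after their values were seen. Scaling by library size alone called 2047 genes, 1552 of them among the 1848, with 1245 lower and 802 higher. Upper quartile factors called 1861 and DESeq2 called 1966 on day 1, while DESeq2 called 378 differences between days. A filter of 3 CPM in every group, which removes genes low in any of the 8 groups, called 695 (484 higher, 211 lower), 333 on day 14 and 97 differences, with 1155 of the 1848 not tested. A looser filter called 2106 (filterByExpr) and no filter 2057. The 4 libraries alone gave 1018 genes (283 lower) and the 8 day 1 libraries 1363 (450 lower), both with fewer residual degrees of freedom. Without the fold threshold 3531 genes passed (1948 higher, 1583 lower), 1515 on day 14, and glmTreat against 1.5-fold gave 469 lower and 60 differences. Leaving out a library gave 1467 to 2786 genes on day 1 (904 to 1488 higher, 557 to 1298 lower), 533 to 947 on day 14 and 15 to 968 differences. The highest day 1 count and the 968 differences came without CD9+ library 1 of day 1, the 15 without F4/80- library 1 of day 14, and the cause was not tested. Without CD9+ library 2 of day 14, 533 genes were called there, and 598 without F4/80- library 2. A table without Gm23935, Gm42418 and the mitochondrial rRNA genes, chosen after seeing the data, called 1878.

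Of 127 named genes, 22 lost the call with the 4 libraries alone, 12 with the 8 day 1 libraries, 10 under glmTreat, and 8 to 16 when a day 1 library was left out. DESeq2 lost none. With 2 pools of 9233952 to 19814119 counts, genes near the floor of 3 counts carry the least certain folds.

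A fit that blocked by replicate number called 1826 genes on day 1, of which 1762 were shared, and 926 on day 14 with 239 differences, and of the named genes Ccl22 and Cd79b lost their day 1 call under the replicate block. It ended no other day 1 call of a named gene and none of the 24 named differences between days, and 2 erythroid genes were called higher in place of 1.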

Other observations

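CD9+ library 1 lay above CD9+ library 2 for 296 of the 1080 genes called higher in CD9+ cells and for 515 of the 768 called lower. CD9+ library 1 was thus more often the nearer of the pair to the F4/80- level.

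By gene type, 10725 of the tested genes were protein coding, of which 998 were called higher and 590 lower in CD9+ cells.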
